A study of Mus musculus with 2 samples.

Results

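The genes described here are 41 members of the interferon response and of antigen presentation, chosen by name as a pathway list and read from the count table of pSM44 mouse embryonic stem cells. Of the 41, M21 of GENCODE (the gene annotation on GRCm38) holds 40 as protein-coding genes, and 34 were listed among the 15127 genes of the table. Mx2 is annotated as a polymorphic pseudogene and was not listed. The cells were a female line from a cross between 129 and castaneous mice. They carried Xist under a doxycycline-responsive promoter at its own locus on the 129 chromosome, and both libraries came from cells given doxycycline (2 μg/mL, 24 h) in serum-free 2i/LIF medium. There was 1 group, 1 line and 1 column of counts, which names neither of the 2 libraries. Whether it pools both or holds 1 of them was not given. Each gene had 1 value with no replicate error, and no untreated or interferon-treated cells were analysed here.

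Interferons are secreted proteins that cells release after sensors detect foreign nucleic acids or microbial products. Sensors signal through adaptors and kinases to the transcription factors of the IRF and NF-κB families. Secreted interferon binds paired receptor chains on a cell, and factors that include STAT2 and IRF9 then act on interferon-stimulated response elements to switch on antiviral effector genes and genes of antigen presentation. Pluripotent stem cells are known for a weak interferon response, with some antiviral genes expressed without interferon.

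The table held 10017978 counts, and 11 counts were needed for a CPM (the count scaled by the table total) of 1. Levels of different genes are compared as CPM per kilobase of annotated exon, written CPM per kb, because counts grow with transcript length. Intervals are exact Poisson 95% intervals of single counts. They cover counting error alone, as reads lacking molecular identifiers cannot be taken as separate molecules. In bulk RNA a transcript in few cells and a low level in all cells cannot be told apart. As a check of the labelled cell type, 9 of 10 pluripotency markers reached CPM 1, at a median of 252 CPM per kb. Sox2, which lies wholly inside Sox2ot, was not listed. Of 15 blood and immune markers, 5 reached CPM 1 and the list summed to 372 counts. Its highest was Cd68 with 301 counts, and Ptprc, Adgre1 and Csf1r were not listed. Of 10 fibroblast markers, 5 reached CPM 1 and the list summed to 2001 counts, led by Fbln1 with 1544, while Col3a1, Dcn and Lum were not listed. The part of such cells in the values below was not tested.

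The promoter windows of 4 effector genes are shown first. They are the 4 of 8 effectors with a window that hold the letters of an interferon element, and their levels ran from the lowest effector to the highest. Each window runs from 250 bases before to 50 bases after the transcript start (RefSeq, GRCm38.p6) and is written on the strand of the gene. Capitals mark the core letters of an interferon-stimulated response element, which are GAAA, 2 bases of any kind and GAAA again, here called the GAAA repeat. Both strands were searched, and on the opposite strand the repeat reads TTTC, 2 bases and TTTC. The windows lie at chr4:156200769-156201068 on the minus strand for Isg15, chr19:34640639-34640938 on the plus strand for Ifit1, chr19:34583279-34583578 on the plus strand for Ifit3 and chr8:71537423-71537722 on the minus strand for Bst2.
Isg15: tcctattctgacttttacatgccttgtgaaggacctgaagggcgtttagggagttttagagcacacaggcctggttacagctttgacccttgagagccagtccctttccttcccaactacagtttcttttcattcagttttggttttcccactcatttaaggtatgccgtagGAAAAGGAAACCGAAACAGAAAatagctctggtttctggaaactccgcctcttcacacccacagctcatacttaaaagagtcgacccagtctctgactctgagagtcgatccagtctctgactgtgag
Ifit1: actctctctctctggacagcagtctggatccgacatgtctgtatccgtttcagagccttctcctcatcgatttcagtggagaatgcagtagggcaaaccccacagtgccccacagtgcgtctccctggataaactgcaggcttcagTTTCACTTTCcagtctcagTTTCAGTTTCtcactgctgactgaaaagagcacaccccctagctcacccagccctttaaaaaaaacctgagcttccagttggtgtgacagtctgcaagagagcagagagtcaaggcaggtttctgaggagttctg
Ifit3: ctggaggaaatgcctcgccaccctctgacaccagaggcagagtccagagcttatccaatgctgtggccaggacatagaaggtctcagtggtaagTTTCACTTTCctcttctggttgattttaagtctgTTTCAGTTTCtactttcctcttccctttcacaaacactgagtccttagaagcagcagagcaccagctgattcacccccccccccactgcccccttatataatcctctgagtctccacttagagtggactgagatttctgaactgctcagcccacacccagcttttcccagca
Bst2: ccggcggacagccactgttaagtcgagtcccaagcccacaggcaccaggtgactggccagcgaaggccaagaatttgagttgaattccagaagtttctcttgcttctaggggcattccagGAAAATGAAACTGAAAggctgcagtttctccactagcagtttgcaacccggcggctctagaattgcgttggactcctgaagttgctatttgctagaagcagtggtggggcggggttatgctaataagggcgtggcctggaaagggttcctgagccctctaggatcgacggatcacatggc
Isg15 had 3 counts, Ifit1 had 4, Ifit3 had 1 and Bst2 had 553. The matches of Isg15 began 78, 72 and 66 bases before the start, each overlapping the next, and those of Bst2 began 130 and 124 bases before it and also overlapped.

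Across the list the pathway was present in parts. Of the 40 annotated members, 25 were at CPM 1 or more, which is 62.5%, beside 55.0% of all 21992 annotated protein-coding genes and 80.1% of all listed genes. That share lay near the background. All 4 interferon receptor genes were at CPM 1 or more, as were 3 of 4 adaptor and kinase genes, 8 of 11 transcription factor genes and 5 of 8 antigen presentation genes. That level was reached by 4 of 9 annotated effector genes, or 44.4% (Clopper-Pearson 95% interval 13.7 to 78.8), and by 1 of 4 sensor genes, or 25.0% (0.631 to 80.6). Both intervals hold the 55.0% of all annotated genes. The genes were picked by name and not drawn at random, so intervals of shares, here and below, test no difference from all genes. The 34 listed members had a median of 2.97 CPM per kb, against 3.80 for all listed genes with an annotated length, and 15 of the 34 lay above that median. On the log2 scale the members' median was -0.35 from that of all listed genes. It turned to 0.02 per kb of whole gene and to 1.29 over annotated genes with those not listed set to 0. Together they summed to 8267 counts, or 0.0825% of the total. In the order of the listed members by CPM per kb, only 6 of 33 neighbouring pairs had counting intervals that did not overlap. These were the steps below Bst2, Trim25, Mavs, Ifnar1 and Rela, and the step from Irf9 to Irf2.

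**Figure D1:**
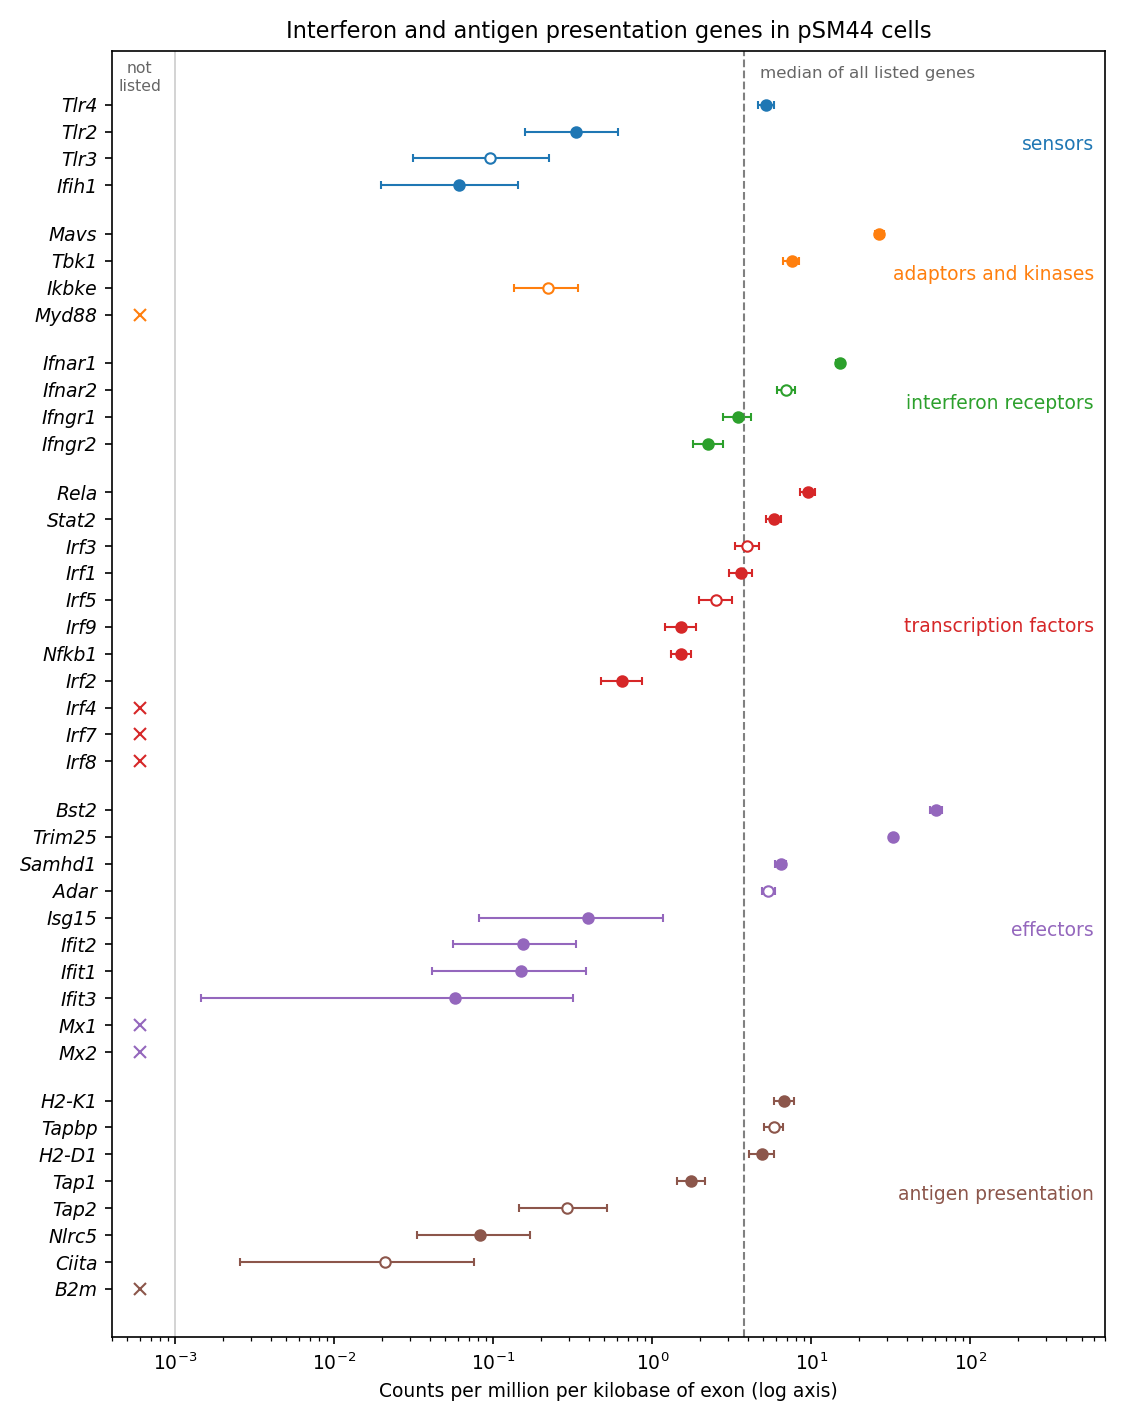
Level of each of the 41 genes as CPM per kb on a log axis, grouped by role and ordered by level within a role; bars are exact Poisson 95% intervals and cover counting error only. Open circles mark genes with more than 10% of exonic bases under another annotated gene. Crosses mark genes not listed (Mx2 is not annotated as protein-coding), and the dashed line is the median of all listed genes at 3.80. Of the 8 listed effectors, 4 lay from 5.37 to 61.1 and 4 from 0.0572 to 0.396, while effectors outside the 41 also lay between.

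The interferon receptors were all present, the chains for type I interferon above those for interferon gamma per kb of exon. Ifnar1 encodes the chain that holds the kinase TYK2 at its cytoplasmic tail, and it had 900 counts, or 15.1 CPM per kb (95% interval 14.2 to 16.1). Ifnar2, the chain that binds type I interferon with the higher affinity, had 232 counts, or 6.96 CPM per kb (6.09 to 7.91). Ifngr1, the ligand-binding chain of the interferon gamma receptor, had 98 counts, or 3.44 CPM per kb, and Ifngr2, its signalling partner, had 85 counts, or 2.25 CPM per kb. Ifnar1 was 4.40 times Ifngr1 per kb of exon (exact 95% interval of the ratio 3.57 to 5.48), or 7.56 times per kb of whole gene, and 6.71 times Ifngr2 (5.37 to 8.49). Ifngr1 was 1.53 times Ifngr2 (1.13 to 2.06). Ifnar1 was 2.17 times Ifnar2 per kb of exon (1.88 to 2.52) and 5.73 times per kb of whole gene. Of the exonic bases of Ifnar2, 73.6% lay under the span of the read-through gene Gm21970. With each gene's whole count divided by its exonic bases free of other genes, the order turned and the ratio was 0.574.

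Ifnar2, Ifnar1 and Ifngr2 lie in this order on chromosome 16, from 91372783 to 91565623 (GRCm38), with gaps of 79.6 kb and 39.6 kb. Il10rb lies between Ifnar2 and Ifnar1 and was named after its value was known. It encodes a chain shared by the receptors of interleukin 10 and interferon lambda and had 31 counts, with 48.1% of its exonic bases under other genes. Ifnlr1, the other chain of the interferon lambda receptor, had 49 counts, or 1.17 CPM per kb. Among the kinases bound to these receptors, Jak1 had 1357 counts, or 18.7 CPM per kb, Jak2 had 165 counts, or 3.27 CPM per kb, and Tyk2 had 12 counts, or 0.174 CPM per kb. For Tyk2, 94.3% of the exonic bases lay under another gene. None of the 21 interferon genes themselves was listed, among them Ifnb1, Ifng and the Ifna genes. Of these 21, 17 had at most 10% of their exonic bases under another gene.

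Of the sensors, 3 of 4 had 10 counts or fewer. Tlr4, the receptor for bacterial lipopolysaccharide, had 288 counts, or 5.17 CPM per kb (4.59 to 5.81), and was the only sensor above CPM 1. Tlr2, a receptor for bacterial lipoproteins, had 10 counts, or 0.331 CPM per kb (0.159 to 0.609), just below CPM 1. Tlr3, which senses double-stranded RNA in endosomes, had 5 counts, or 0.0959 CPM per kb, with 10.9% of its exonic bases under another gene. Ifih1, which encodes MDA5, a sensor of long double-stranded RNA in the cytoplasm, also had 5 counts. It stood at 0.0611 CPM per kb (0.0198 to 0.143). Tlr4 was 15.6 times Tlr2 per kb of exon (8.37 to 32.9), but 1.54 times Tlr2 per kb of whole gene, as the span of Tlr4 is 103 kb and that of Tlr2 is 5.50 kb. The feature that was counted, exons or whole genes, remained not given in the sources used here.

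Of 15 further sensor genes, 7 reached CPM 1, which is 46.7% (21.3 to 73.4), near the 55.0% of all annotated genes. The 5 not listed were the receptor genes Tlr1, Tlr5, Tlr7, Tlr8 and Tlr9. The highest were Aim2, a sensor of cytoplasmic DNA, with 409 counts or 11.7 CPM per kb, and Eif2ak2, which encodes the kinase PKR, with 340 counts or 6.64 CPM per kb. Cgas, which makes the messenger cGAMP on DNA, followed with 80 counts or 1.94 CPM per kb. The lowest of these at CPM 1 or more was Nod2 with 44 counts, or 0.876 CPM per kb. Ddx58, which encodes the RNA sensor RIG-I and is named here outside the naming rule, its value being known, had 79 counts, or 1.12 CPM per kb. It was 18.3 times Ifih1 per kb (7.52 to 57.9).

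The adaptor downstream of the RNA sensors was far more abundant than the sensors. Mavs, the mitochondrial adaptor of RIG-I and MDA5, had 896 counts, or 26.7 CPM per kb (25.0 to 28.5), which placed it above 85.7% of listed genes. It was 437 times Ifih1 per kb, with an interval of 187 to 1350. Tbk1, the kinase that phosphorylates IRF3, had 294 counts, or 7.51 CPM per kb (6.67 to 8.41). Ikbke, its close relative, had 20 counts, or 0.221 CPM per kb (0.135 to 0.342), with 31.8% of its exonic bases under other genes. Tbk1 was 33.9 times Ikbke per kb of exon (21.6 to 56.3), but 9.21 times per kb of whole gene. Myd88, the adaptor of most Toll-like receptors, was not listed. It lies wholly inside the span of Slc22a14 in M21, and 0 exonic bases were free of that span.

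Of 13 further adaptors and kinases, 12 were at CPM 1 or more, or 92.3% (64.0 to 99.8), beside 55.0% of all annotated genes. This list and that of the negative regulators below were picked with earlier results known, so their shares are descriptions and not tests. Irak1, a kinase that acts after MYD88, had 685 counts, or 14.5 CPM per kb. Chuk, which encodes a kinase of IκB, had 696 counts, or 13.7 CPM per kb, and Map3k7, which encodes the kinase TAK1, had 825 counts, or 12.8 CPM per kb. The lowest per kb of exon was Ikbkb, the other kinase of IκB, with 218 counts, or 1.14 CPM per kb. Its rank depended on the length used, as its merged exons span 19.1 kb. Per kb of longest transcript it had 4.49, above the 1.57 of Tirap, and in plain counts it stood above Ticam1 with 64. Of 18 negative regulators of these pathways 16 were at CPM 1 or more, or 88.9% (65.3 to 98.6), beside the same 55.0%. Of the 17 listed, 13 lay above the median of all listed genes. Rnaseh2a, a subunit of the nuclease that removes RNA from DNA hybrids, had 39.1 CPM per kb. Nfkbia, the inhibitor IκBα, had 33.4 CPM per kb and Rnaseh2c had 31.0. The lowest at CPM 1 or more was Nlrx1 with 0.590 CPM per kb.

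**Figure D2:**
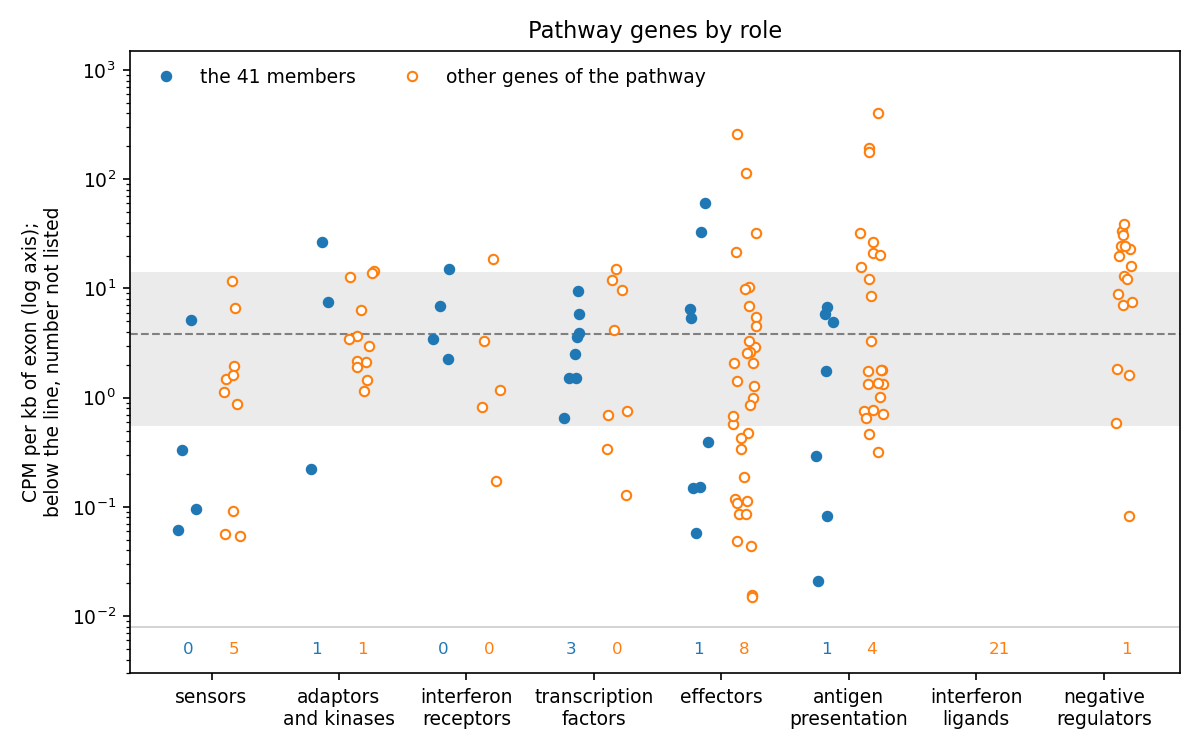
Level of the 41 genes (filled, left in each role) and of 151 further pathway genes (open, right) as CPM per kb on a log axis; each point is 1 gene, numbers under the line count annotated genes not listed, the dashed line is the median of all listed genes and the band runs from the 25th to the 75th percentile, 0.563 to 13.7. All 21 interferon genes fall in the row of genes not listed, while 16 of 18 negative regulators were at CPM 1 or more. The share of all annotated genes at that level was 55.0%.

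Transcription factors ran from moderate to not listed. Rela, the main activating subunit of NF-κB, had 292 counts, or 9.49 CPM per kb (8.43 to 10.6), and Nfkb1, whose product pairs with it, had 184 counts, or 1.52 CPM per kb (1.31 to 1.76). Rela was 6.23 times Nfkb1 per kb of exon (5.16 to 7.53). The size depended on the length used, as it was 15.9 per kb of whole gene and 1.59 in plain counts. Stat2, which carries the signal of type I interferon, had 344 counts, or 5.79 CPM per kb (5.20 to 6.44), and its partner Irf9 had 82 counts, or 1.52 CPM per kb (1.21 to 1.89). Stat2 was 3.81 times Irf9 (2.99 to 4.91), but 1.22 times per kb of whole gene. Of 8 further transcription factors, 7 were at CPM 1 or more, which is 87.5% (47.3 to 99.7). This interval holds the 55.0% of all annotated genes. The highest further factors were Relb with 15.1 CPM per kb and the IRF2-binding proteins Irf2bp2 with 12.0 and Irf2bp1 with 9.60.

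Of the IRF genes, Irf1, Irf2, Irf3, Irf5 and Irf9 were at CPM 1 or more, and Irf4, Irf7 and Irf8 were not listed. Irf3, the factor activated by TBK1, had 136 counts, or 3.94 CPM per kb (3.31 to 4.67), with 30.8% of its exonic bases under other genes. Irf1, which interferon gamma induces in many cells, had 144 counts, or 3.62 CPM per kb (3.05 to 4.26). Irf5, a factor of Toll-like receptor signalling, had 73 counts, or 2.51 CPM per kb, with 14.3% of its exonic bases under other genes. Irf2, a repressor at many interferon elements, had 48 counts, or 0.648 CPM per kb (0.478 to 0.859). The intervals of Irf3 and Irf1 overlapped. Irf4 and Irf8 are factors of lymphoid and myeloid cells, and Irf7 amplifies interferon production. The overlap with other genes differed between these 3. Irf4 had 0% and Irf7 1.19% of their exonic bases under another gene, whereas Irf8 lay wholly inside the predicted gene Gm20388, so its missing entry gives no level.

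Of the 8 listed effectors, 4 lay between 5.37 and 61.1 CPM per kb and 4 between 0.0572 and 0.396. Bst2, which encodes tetherin, a membrane protein that holds budding virus at the cell surface, had 553 counts. At 61.1 CPM per kb (56.1 to 66.4) it was the highest member and lay above 94.1% of listed genes. Trim25, a ubiquitin ligase linked to RIG-I, had 1887 counts, the highest count of any member, or 32.7 CPM per kb (31.3 to 34.2). Samhd1, which degrades deoxynucleotides, had 589 counts, or 6.43 CPM per kb (5.92 to 6.97). Adar, which edits adenosine in double-stranded RNA, had 437 counts, or 5.37 CPM per kb (4.88 to 5.90). Samhd1 was 1.20 times Adar per kb of exon (1.05 to 1.36). Of the exonic bases of Adar, 40.6% lay under other genes, and divided by free exonic bases the order turned, to 0.711.

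Isg15, Ifit1, Ifit2 and Ifit3 had 6 counts or fewer each. Isg15, a ubiquitin-like modifier, had 3 counts, or 0.396 CPM per kb (0.0817 to 1.16). Ifit1, Ifit2 and Ifit3 encode proteins that bind foreign RNA or act beside those that do. Ifit1 had 4 counts, or 0.150 CPM per kb, Ifit2 had 6 counts, or 0.153 CPM per kb, and Ifit3 had 1 count, or 0.0572 CPM per kb. These 3 genes lie together on chromosome 19, with gaps of 7.11 kb between Ifit2 and Ifit3 and 52.1 kb between Ifit3 and Ifit1. Mx1, a dynamin-like antiviral GTPase, was not listed, with 0% of its exonic bases under another gene. The ratio of Bst2 to Isg15 was 154 per kb (52.5 to 751), and that of Trim25 to Isg15 was 82.6 (28.2 to 401). Per kb of whole gene these ratios were 80.3 for Bst2 and 41.9 for Trim25. The copies of the Ifit family limit single values, as 35.1% of the 90-base windows of the Ifit3 transcript also occur in Ifit3b, and 4.05% of those of Ifit1 occur in other genes. Neither Ifit3b nor Ifit1bl2 was listed, and Ifit1bl1 had 1 count.

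A wider list of 43 effector genes, 42 of them annotated as protein-coding, ran from 0.0150 to 257 CPM per kb. Genes of this list also lay between 0.396 and 5.37 CPM per kb, where no member effector lay. Among them, named with their values known, were Oas2 with 0.471, Xaf1 with 2.09 and Oasl1 with 4.52. Of the 42, 21 were at CPM 1 or more, 13 were listed below it and 8 were not listed. The highest were Ifitm3 with 1746 counts, or 257 CPM per kb, and Ifitm1 with 1249 counts, or 114 CPM per kb, both of a family of membrane proteins that block virus entry. Zc3hav1, which encodes the antiviral protein ZAP, had 2102 counts, or 32.2 CPM per kb. The lowest at CPM 1 or more was Cmpk2 with 14 counts, or 0.336 CPM per kb. The next 3 genes fall outside the naming rule and were picked with their values known. Oas1a, an enzyme that makes 2-5A, had 408 counts, but 43.4% of its 90-base windows occurred in other genes, most often Oas1g. Oasl2, of the same family, had 1 count. Usp18, which removes ISG15 from proteins, was not listed, with 81.8% of its exonic bases under another gene.

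Among antigen presentation genes, H2-K1, Tapbp and H2-D1 lay above the median of all listed genes, Tap1 and Tap2 lay below it, and the activators Nlrc5 and Ciita had under 10 counts each. H2-K1, a classical class I heavy chain, had 198 counts, or 6.73 CPM per kb (5.82 to 7.73), and H2-D1, another, had 126 counts, or 4.88 CPM per kb (4.06 to 5.81). H2-K1 was 1.38 times H2-D1 per kb (1.10 to 1.74). The class I genes have close relatives. Of the 90-base windows of the longest transcript, 0.131% of H2-K1 and 5.46% of H2-D1 occurred in another gene. By shared windows alone the value of H2-D1 is the less certain. Loss of reads from alleles that differ from GRCm38 was not tested for either gene. B2m, the light chain that class I heavy chains need, was not listed. It lies at chromosome 2, 122147686 to 122153083, wholly inside the span of Patl2 on the other strand, and 0 of its exonic bases overlapped an exon of that gene. Patl2 had 136 counts.

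Tapbp, which encodes tapasin and holds class I molecules at the peptide transporter, had 211 counts, or 5.81 CPM per kb (5.05 to 6.64). Of its exonic bases 33.1% lay under other genes, and over the free bases it had 8.67 CPM per kb. Tap1 and Tap2 encode the 2 chains of that transporter. Tap1 had 96 counts, or 1.75 CPM per kb (1.42 to 2.14), and Tap2 had 11 counts, or 0.290 CPM per kb (0.145 to 0.520). Tap1 was 6.03 times Tap2 per kb of exon (3.22 to 12.5), 11.5 times per kb of whole gene and 2.67 times when divided by free exonic bases, with 57.4% of the exonic bases of Tap2 under other genes. Both lie on chromosome 17 with 6.30 kb between them. Nlrc5, the activator of class I genes, had 7 counts, or 0.0823 CPM per kb (0.0331 to 0.170). Ciita, the activator of class II genes, had 2 counts, or 0.0209 CPM per kb (0.00254 to 0.0756), the lowest of the listed members per kb of exon. Of its exonic bases 71.2% lay under other genes, and over the free bases it had 0.0728 CPM per kb, above the 0.0572 of Ifit3.

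Of 28 further genes of antigen presentation, 24 were at CPM 1 or more, or 85.7% (67.3 to 96.0), beside 55.0% of all annotated genes. These genes were also picked with earlier results known, so the share is a description and not a test. The 3 highest were general chaperones of the endoplasmic reticulum that also fold class I molecules, Calr with 403 CPM per kb, Canx with 192 and Pdia3 with 176. Subunits of the immunoproteasome, which cuts peptides for class I, were low or not listed, and are named outside the rule. Psmb9 had 17 counts, and Psmb8 and Psmb10 were not listed, with 55.5% and 100% of their exonic bases under other genes. Among class II genes, H2-Aa was the lowest of the list at CPM 1 or more with 12 counts, or 0.315 CPM per kb.

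The share of genes listed differed with overlap across the whole annotation. Of 1469 annotated protein-coding genes with all exonic bases under another gene, 8.44% were listed. Of 14131 genes with none there, 67.1% were listed. The members Myd88, Irf8 and B2m belong to the first class, and none of the 3 was listed. Among the 23 members with no overlap, 21 were listed, and Irf4 and Mx1 were not. Of 5 members with up to 10% overlap 4 were listed, the exception being Irf7, beside 91.7% of all genes in that class. All 6 members with overlap above 10% to 50% were listed, beside 88.1% of all such genes. All 3 members above 50% and below 100% were listed, beside 63.2%. The treatment of reads in overlaps and the strand setting remained not given in the sources used here. Whether reads of a gene and of an antisense partner were told apart is therefore not known.

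**Figure D3:**
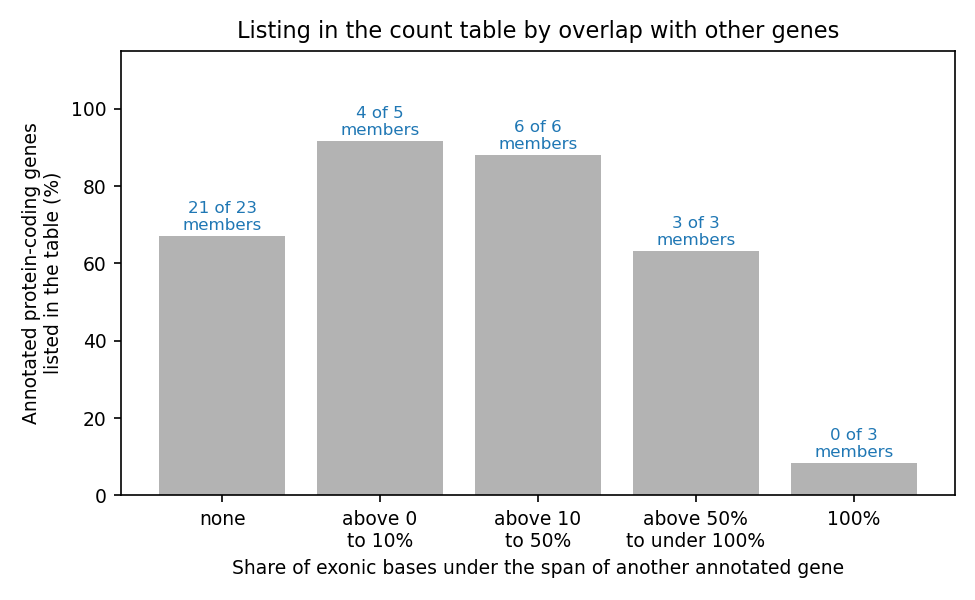
Share of annotated protein-coding genes that were listed in the table (bars, %), by how much of their exonic sequence lay under another gene (%), with the members of each class written above the bar. Only 8.44% of fully covered genes were listed, against 67.1% of genes with no overlap. In the classes between, from less to more overlap, the shares were 91.7%, 88.1% and 63.2%.

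Letters of interferon elements and CpG content were then read in the promoter windows. The members were chosen by name, not by these letters. The pathway acts through such elements, however, so their share among members is not independent of that choice. Of the 41 members 34 had a window, and Tlr4, Nfkb1, Mx1, Mx2, Nlrc5, Ciita and Tap2 had none. The GAAA repeat, searched on both strands with overlapping matches kept, was present in 9 of the 34, which is 26.5%, beside 4.02% of 16522 protein-coding genes with a window of the same length. The 9 were Isg15, Ifit1, Ifit3, Ifih1, Bst2, Stat2, Irf2, Myd88 and B2m. Of 7 members listed below CPM 1 with a window 4 held these letters, and of 22 at CPM 1 or more 3 did. Among 5 members not listed, 2 held them. These were Myd88 and B2m, which lie wholly inside other genes, so their missing entries give no level. Of the 4 below CPM 1, Isg15, Ifit1 and Ifit3 are effectors, so role and level cannot be told apart here. The match of Ifih1 began 32 bases after the start. Over all protein-coding genes the shares were 4.89% of those listed below CPM 1 and 3.29% of those at CPM 1 or more. Of those not listed, 5.1% held the letters. In the wider effector list, 6 of 11 genes listed below CPM 1 held them, and 9 of 17 at CPM 1 or more. A match to these letters is a description and not a shown binding site.

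The core letters of the gamma-activated site, another interferon element, TTC, 3 bases of any kind and GAA, read the same on both strands and were present in 10 of the 34 members, or 29.4%, beside 9.02% of all protein-coding genes. The 10 were Ifnar1, Ifnar2, Irf1, Irf2, Irf8, Myd88, Samhd1, Adar, Ifit2 and Bst2. In Bst2 the match began 136 bases before the start and overlapped the first GAAA repeat, and the match of Myd88 also overlapped one. The CpG content of the window, as observed over expected CpG, had a median of 0.670 in 22 members at CPM 1 or more and 0.384 in 7 members listed below it. Over all protein-coding genes the medians were 0.770 and 0.367. In 5 members not listed the median was 0.613, against 0.186 for all protein-coding genes not listed. Of these members, Myd88, Irf8 and B2m lie wholly inside other genes, so their missing entries give no level. The interferon receptors had a median of 0.770 over 4 genes, and the effectors 0.429 over 8. Over the first window of each gene Ifit3 was lowest at 0.0564 and Tbk1 highest at 1.05, while Ifih1 had 0.819 with 5 counts.

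**Figure D4:**
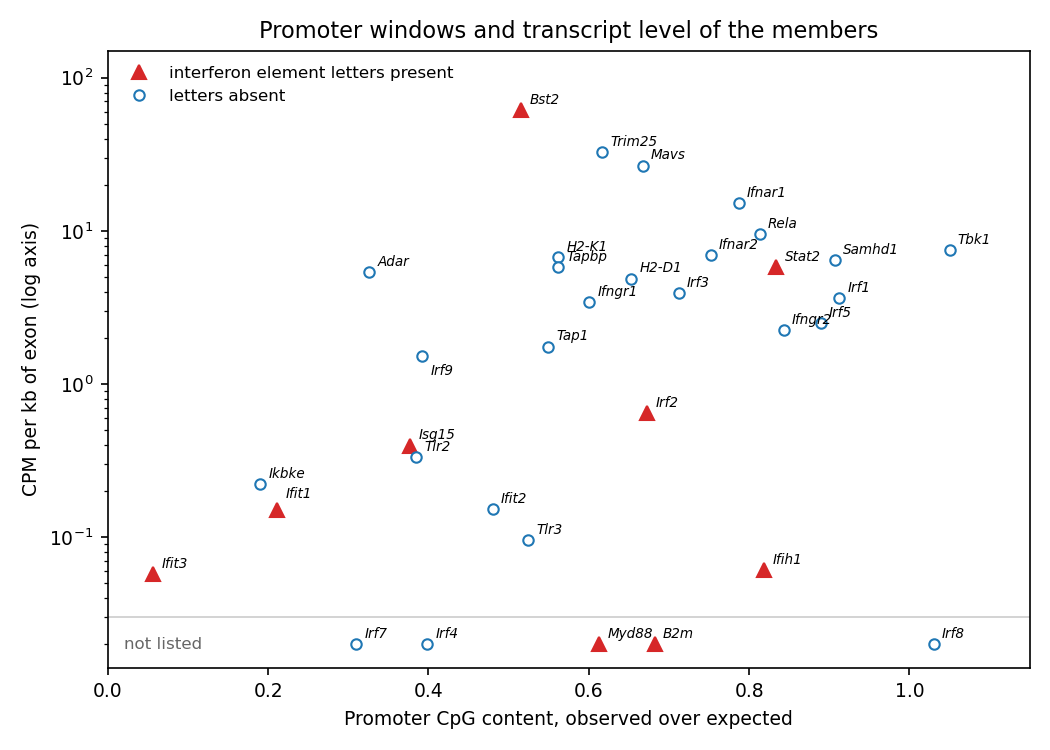
CpG content of the promoter window (observed over expected) and transcript level as CPM per kb on a log axis for the 34 members with a window; triangles mark windows with the letters of the interferon-stimulated response element, circles windows without, and genes not listed stand under the line. Bst2, at 61.1 CPM per kb, and Isg15, Ifit1, Ifit3 and Ifih1, from 0.0572 to 0.396, carry the same letters.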

How the data were processed

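The 2 libraries, both of 1 group, were of poly(A) RNA. The submitters' processing notes name Trimmomatic 0.38, HISAT2, SAMtools, Subread 1.6.4 with featureCounts, and build GRCm38.p6. The values the authors deposited are raw counts, 1 column by gene symbol, and the smallest is 1. Annotation release, strand setting, counted feature and any pooling of libraries stay not given in the sources used here.

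CPM is the count over the table total, and CPM per kb divides it by merged exon length. Symbols were matched to GENCODE M21 (15052 genes, 156 of them through RefSeq synonyms), and 75 unmatched symbols held 0.131% of counts. Overlap is the share of exonic bases lying within any other annotated gene. Shared 90-base windows came from M21 transcripts. Ratios of 2 counts had exact Clopper-Pearson 95% intervals on their split. With 1 group and 1 column no test across samples was made. Members, gene lists, motifs and compared pairs were chosen with earlier results of these data known. All members were named and, of each wider list, the 3 highest genes per kb and the lowest at CPM 1 or more, with others as stated. Some genes that this rule would name are not reported here. Alternatives were other minimums, lengths and gene sets. The list median per kb and the Poisson interval were tested on simulated data. The ratio intervals, overlap shares, shared windows and motif search were not. The software was matplotlib 3.10.9, pandas 2.3.3, scipy 1.17.1, numpy 2.4.6 and Python 3.11.15.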

Additional observations from a re-analysis of the deposited data

How the results depend on the processing

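No paired analysis was possible because there was 1 group in 1 column, and leaving out each library was not run for the same reason. The count of members at CPM 1 or more (25) stayed within 1.5 times under every minimum tried and among overlap-free genes. By role, the sensor count (1) was 2 at CPM 0.5, 2 at 10 counts and 4 with no minimum, the effector count (4) was 8 with no minimum, and the antigen presentation count (5 of 8) was 3 of 4 among overlap-free genes. In the wider lists, receptor genes (5 of 5) gave 2 at CPM 5, 3 at 1 CPM per kb and 3 of 3 among overlap-free genes. Transcription factors (7 of 8) gave 4 at 1 CPM per kb and 3 of 3 among overlap-free genes, effectors (21) gave 34 with no minimum, antigen presentation genes (24) gave 15 at CPM 5 and negative regulators (16 of 18) gave 10 of 11 among overlap-free genes. The overlap-free counts were lower because fewer genes were counted, and no share of these fell.

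Medians over so few genes were unstable. Relative to all listed genes, on the log2 scale of CPM per kb, the members' median was -0.35. It was 0.02 per gene span, -0.72 as CPM and 1.29 with unlisted annotated genes at 0. For sensors (-4.15) it was -2.52 per gene span, -0.29 at CPM 1 or more and -1.65 with unlisted at 0. For adaptors and kinases (0.98) it was 0.25 per gene span, 0.68 as CPM, 0.24 at CPM 1 or more, 2.53 with unlisted at 0, 2.00 in overlap-free genes and 0.80 per free exonic base. For receptors (0.45) it was 0.02 per gene span, -0.16 as CPM, -0.29 at CPM 1 or more, 2.96 with unlisted at 0, -0.32 in overlap-free genes and 1.10 per free exonic base. For transcription factors (-0.31) it was 0.12 per longest transcript, 1.19 per gene span, -1.05 at CPM 1 or more, 1.18 with unlisted at 0 and -0.74 in overlap-free genes. For effectors (-0.40) it was 0.14 per gene span, 0.27 as CPM, 1.63 at CPM 1 or more and -3.44 in overlap-free genes. For antigen presentation (-1.12) it was 0.69 per gene span, -0.38 at CPM 1 or more, 0.61 with unlisted at 0 and -0.37 in overlap-free genes. The cause of these shifts was not tested. The scale per free exonic base was added after the data were seen. Per kb of whole gene every compared ratio stayed above 1, and per free exonic base Ifnar1 to Ifnar2 and Samhd1 to Adar fell below it. Tlr2 with 10 counts and Tap2 with 11 lie on either side of CPM 1 within counting error.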

Other observations

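Class II genes did not share 1 level, and the genes described here were named after their values were seen. H2-Eb1, a class II beta chain, had 394 counts, or 20.2 CPM per kb, with 9.31% of its exonic bases under another gene. It stood above both classical class I members, H2-K1 with 6.73 CPM per kb and H2-D1 with 4.88. Loss of reads from alleles that differ from GRCm38 was not tested for these genes. The other class II chains were far lower, H2-Ab1 with 46 counts, or 1.79 CPM per kb, and H2-Aa with 12 counts, or 0.315 CPM per kb. Cd74, the invariant chain, had 55 counts, or 3.27 CPM per kb, and Ciita had 2 counts. Among blood and immune markers, Cd68 had 301 counts while Cd79a had 22.

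Further genes of the pathway were likewise picked with their values known. Apobec3, which encodes an antiviral cytidine deaminase, had 937 counts, or 9.89 CPM per kb. Socs3 and Socs1, inhibitors of receptor signalling, had 701 and 205 counts. Tnfaip3, an NF-κB target that restrains the pathway, had 6 counts.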
